A study of Homo sapiens with 8 samples.

Results

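The 8 genes described here serve antigen presentation but lie outside the major histocompatibility complex: NLRC5, CIITA, ERAP1, ERAP2, LNPEP, CALR, CANX and PDIA3. They were chosen by name, out of 20033 protein-coding genes on the nuclear chromosomes of the RefSeq table of GRCh38.p14, and every ATAC-seq peak in each gene body and 50 kb either side was taken from each of 8 peak lists. ATAC-seq marks open chromatin, because a transposase inserts sequencing adapters where DNA is accessible. All 8 genes were found, and each had a peak in all 8 lists.

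The samples came from H1975 and HCC44, which are established human lung cancer lines. Each line was cultured for 96 h with the solvent DMSO or with ACBI1, at a dose labelled 1 mM, and each of the 4 groups had 2 replicates. Every sample is labelled lung tissue, lung cancer and genotype WT, and the DMSO and ACBI1 groups of a line differ only in the compound. ACBI1 directs cells to destroy SMARCA2 and SMARCA4, the motor proteins of the SWI/SNF complexes that move nucleosomes, together with the subunit PBRM1. Protein levels were not analysed here, so the effect of the compound on its targets was not checked, and nothing says whether the replicates were separate cultures.

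Cells show peptides on MHC class I molecules to cytotoxic T cells and on class II molecules to helper T cells. NLRC5 switches on class I genes and CIITA switches on class II genes. Both act through a protein complex bound to the gene promoters. ERAP1 and ERAP2 are aminopeptidases of the endoplasmic reticulum that trim peptides to the length class I molecules accept, and LNPEP is a related aminopeptidase of endosomes with a part in cross-presentation. CALR (calreticulin), CANX (calnexin) and PDIA3 (ERp57) are chaperones that fold class I molecules, and calreticulin and ERp57 also belong to the peptide-loading complex.

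In ACBI1-treated HCC44 cells 9 of the 12 peaks that each DMSO sample held across the neighbouring genes ERAP1, ERAP2 and LNPEP were listed in neither replicate, and the peak at the ERAP2 start was among them. Of the 11 regions of this locus that both DMSO samples shared, 8 (72.7%) were lost. In HCC44 49.2% of all regions were lost, and 63.9% of those away from gene starts. Over all 8 genes the share lost in HCC44 was 38.3%. With each list limited to its 22133 strongest peaks by -log10 q, the ERAP1 window of HCC44 showed a difference of 0 peaks. Around the regulators NLRC5 and CIITA fewer peaks were listed after ACBI1 in both lines. The peaks at the starts of ERAP1, LNPEP, CALR and CANX and at the lower-coordinate ends of NLRC5 and PDIA3 were listed in all 8 samples. In a given list, 58.1% to 61.8% of all protein-coding genes had a peak counted at a start or end. The differences with ACBI1 stand against shorter ACBI1 lists throughout the genome. The share over all genes or regions is given beside the counts where it was computed.

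List lengths ran from 41027 to 43525 peaks in the H1975 DMSO samples and from 22133 to 27682 after ACBI1. The HCC44 lists had 49945 to 50347 peaks for DMSO and 24862 to 26313 for ACBI1. The read depth is unknown, and a peak that is not listed is no measurement of closed chromatin. As a check of the labels, peaks were read at the starts of marker genes. EPCAM, KRT18, COL1A1, CDH1, CD3E and PECAM1 were not in the promoter table used. For these a peak within 1 kb of either end of the gene was counted. The epithelial genes EPCAM, KRT8 and KRT18 and the mesenchymal genes VIM and COL1A1 had such a peak in all 8 lists. CDH1 had one in 7 lists and the lung factor NKX2-1 in 5. SFTPB, a surfactant gene of differentiated lung epithelium, had none. The leukocyte gene PTPRC and the endothelial gene PECAM1 had none either, while the T cell gene CD3E had one in 3 DMSO lists.

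Promoters of 4 genes are shown because they set the ERAP2 start, whose peak was not listed after ACBI1, beside 3 starts whose peaks were, and because each matched 1 of the motifs given next. Each run covers 250 bases before and 50 bases after a RefSeq start on GRCh38.p14, read 5′ to 3′ on the gene's strand. Capitals in ERAP1 and ERAP2 mark a match to GAAANNGAAA, the core bound by interferon regulatory factors, on either strand. Capitals in CALR and CANX mark the fixed letters of the endoplasmic reticulum stress element, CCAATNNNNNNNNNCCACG, on either strand. The ERAP1 run is chr5:96807896-96808195 on the minus strand, and the plus-strand runs are chr5:96876250-96876549 for ERAP2, chr19:12938359-12938658 for CALR and chr5:179698679-179698978 for CANX.
ERAP1: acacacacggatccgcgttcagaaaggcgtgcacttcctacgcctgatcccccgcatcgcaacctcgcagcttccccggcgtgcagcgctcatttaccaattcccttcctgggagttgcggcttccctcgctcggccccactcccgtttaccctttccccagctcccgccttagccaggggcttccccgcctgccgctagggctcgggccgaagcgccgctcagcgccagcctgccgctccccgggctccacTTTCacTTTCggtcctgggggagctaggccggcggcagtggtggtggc
ERAP2: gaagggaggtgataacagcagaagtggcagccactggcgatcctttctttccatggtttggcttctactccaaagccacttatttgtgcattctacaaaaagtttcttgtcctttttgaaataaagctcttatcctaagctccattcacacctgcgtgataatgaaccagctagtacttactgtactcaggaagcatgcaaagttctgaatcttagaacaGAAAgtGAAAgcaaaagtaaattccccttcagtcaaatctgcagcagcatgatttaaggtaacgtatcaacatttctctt
CALR: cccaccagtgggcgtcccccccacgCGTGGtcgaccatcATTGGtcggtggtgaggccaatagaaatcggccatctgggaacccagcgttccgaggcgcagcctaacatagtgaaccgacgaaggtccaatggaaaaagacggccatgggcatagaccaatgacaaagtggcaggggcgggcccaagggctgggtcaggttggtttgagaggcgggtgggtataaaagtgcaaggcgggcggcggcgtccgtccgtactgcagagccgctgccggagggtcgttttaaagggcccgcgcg
CANX: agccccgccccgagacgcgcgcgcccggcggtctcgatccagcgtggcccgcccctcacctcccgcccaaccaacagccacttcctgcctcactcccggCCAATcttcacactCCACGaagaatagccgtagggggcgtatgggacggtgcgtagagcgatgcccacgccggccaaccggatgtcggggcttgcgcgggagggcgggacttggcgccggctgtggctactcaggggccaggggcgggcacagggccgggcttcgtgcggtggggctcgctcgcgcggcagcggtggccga

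The interferon-type core lies from 2 to 11 bases after the first transcribed base in ERAP1, counted with that base as 1, and from -30 to -21 in ERAP2. Of 35116 promoters in the table, 3.57% hold this core. The stress element lies from -225 to -207 in CALR and from -151 to -133 in CANX, and only 27 promoters (0.0769%) hold it. The stress element contains the CCAAT box, which by itself is in 34.6% of promoters and occurs 4 times in CALR. LNPEP's promoter at chr5:96935830-96936129 matched neither the interferon core nor the stress element. A match is a string of letters and not a measured binding site. The promoters also differ in composition: ERAP2's has a GC content of 40.3% and 3 CpG dinucleotides, ERAP1's 67.7% and 28, LNPEP's 71.3% and 29, CALR's 62.7% and 26, and CANX's 73% and 38. The medians over the table are 58.7% and 14.

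NLRC5 lies at chr16:56989557-57083520. Its window held 9 and 10 peaks in the H1975 DMSO samples and 7 and 5 in the ACBI1 samples. In HCC44 it held 10 in each DMSO sample and 5 and 6 in the ACBI1 samples. Every ACBI1 sample was below every DMSO sample of its line. The mean difference over both lines was -4 peaks (exact permutation test, two-sided, labels permuted within line, p = 0.0556), and the covered length differed by -3.23 kb (exact permutation p = 0.0556). With 36 arrangements, 0.0556 is the smallest p this test can give over both lines, and 0.333 within 1 line, so no difference in this design can pass 0.05. When each list was limited to its 22133 strongest peaks by the authors' -log10 q, the length of the shortest list, the NLRC5 difference turned to 2.25 peaks higher with ACBI1.

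The peak at the lower end of NLRC5, within chr16:56988946-56989869, was in all 8 lists. Its rank is given as the percent of a list's peaks with a lower -log10 q. It ranked at 50.5 and 63.7 in H1975 DMSO, 37.1 and 30.5 in H1975 ACBI1, 74.2 and 54.5 in HCC44 DMSO, and 48.5 and 55.6 in HCC44 ACBI1. It was thus a mid-list peak, and since list lengths differ its ranks do not measure change. Inside the gene, 10014 bp from its lower end, the region chr16:56999571-57000999 had a peak in all 4 H1975 samples and in both HCC44 DMSO samples, but in neither HCC44 ACBI1 sample. A second intragenic region, chr16:57060787-57061785, had peaks in all 4 DMSO samples and in 1 H1975 ACBI1 sample only. Around the 8 genes 1 of 52 regions was gained in H1975 and 0 of 59 in HCC44. The share of gained regions over the genome was not computed. The gained region is chr16:56950889-56951574, 38 kb outside the lower end of NLRC5. It was listed in both H1975 ACBI1 samples and in neither H1975 DMSO sample. In HCC44 the same region had a peak in 1 DMSO sample and both ACBI1 samples.

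CIITA lies at chr16:10866206-10943021. Its window held 10 and 10 peaks in H1975 DMSO, 9 and 5 in H1975 ACBI1, 8 and 8 in HCC44 DMSO, and 5 and 4 in HCC44 ACBI1. The 2 H1975 ACBI1 samples differed more from each other than 1 of them did from DMSO, and the sample with 5 is also the shortest list. The mean difference over both lines was -3.25 peaks (exact permutation p = 0.0556), and -0.25 with equal list lengths (exact permutation p = 1). Covered length was 7.34 and 7.36 kb in H1975 DMSO, 5.74 and 2.32 kb in H1975 ACBI1, 9.4 and 9.19 kb in HCC44 DMSO, and 2.18 and 2.08 kb in HCC44 ACBI1. In HCC44 the ACBI1 samples held 22.9% of the length covered with DMSO, and the difference over both lines was -5.24 kb (exact permutation p = 0.0556), against -1720 bp with equal list lengths (exact permutation p = 0.111).

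No list had a peak within 1 kb of the lower end of the CIITA record. The peak counted at an end of this gene, chr16:10941663-10942846, lies at the start of the neighbour DEXI and was in all 8 lists. CIITA is known to be transcribed from several alternative promoters, and 3 regions near its lower end differed between the groups. Just outside that end, 3.23 kb away, chr16:10862455-10862972 had peaks in all 4 DMSO samples, ranked from 60.9 to 80.8, and in no ACBI1 sample. Within the gene, chr16:10870820-10871911 had peaks in all 4 DMSO samples, ranked from 42.3 to 63.8, and in no ACBI1 sample. The next region, chr16:10877040-10879702, was 1 peak of 2663 and 2424 bp in the HCC44 DMSO samples and a peak of 338 and 590 bp in the ACBI1 samples. In H1975 it was listed in both DMSO samples and in 1 ACBI1 sample. A further intragenic region, chr16:10918505-10919014, was in all 4 H1975 lists and in no HCC44 list.

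**Figure D1:**
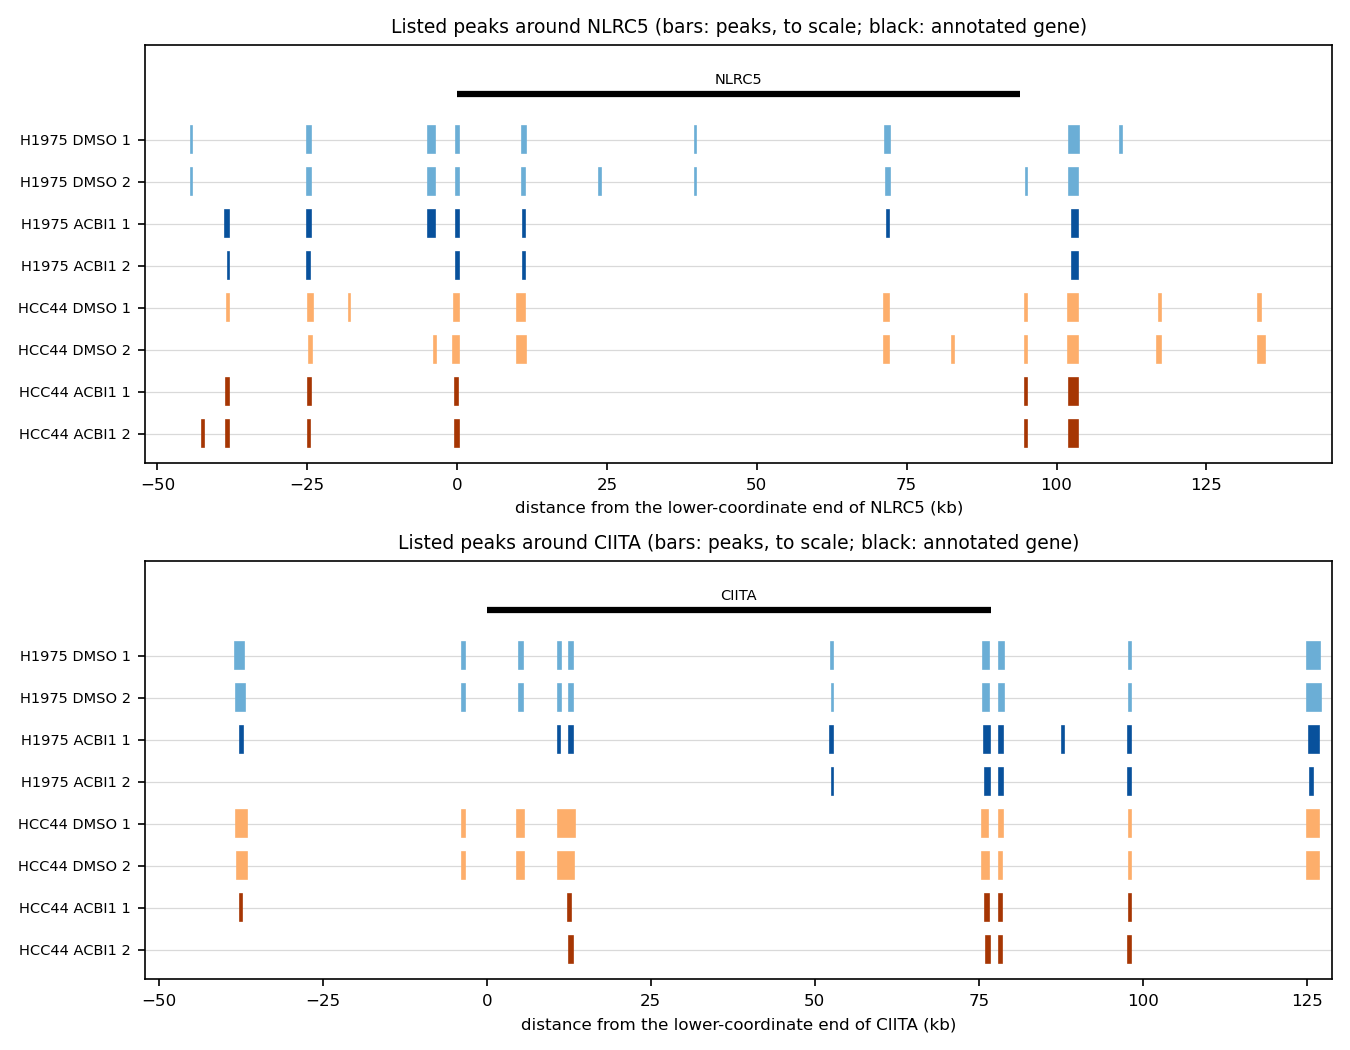
Peaks listed around NLRC5 and CIITA in each sample. The horizontal axis is the distance in kb from the lower-coordinate end of each gene, each row is a sample, coloured bars are peaks drawn to scale and black bars are the annotated genes. The NLRC5 peak at 0 kb is present in all 8 rows, while the CIITA peaks just left and just right of 0 kb are present in the 4 DMSO rows only.

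ERAP1, ERAP2 and LNPEP lie side by side on chromosome 5. The ERAP1 record, chr5:96760813-96935854, spans the whole of ERAP2 at chr5:96875984-96919716 and ends close to the start of LNPEP at chr5:96936080-97037513. The windows of the 3 genes therefore share peaks, and the window of ERAP1 held every peak of the joint locus. They are not 3 independent observations.

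The ERAP1 window held 7 and 6 peaks in H1975 DMSO, 5 and 3 in H1975 ACBI1, 12 and 12 in HCC44 DMSO, and 3 and 3 in HCC44 ACBI1. HCC44 had the most peaks of any group with DMSO and, with ACBI1, no more than the lowest H1975 sample. The mean fell from 12 to 3 in HCC44, which is 25% of DMSO, and from 6.5 ± 0.707 to 4 ± 1.41 in H1975 (mean ± SD, n = 2). Over both lines the difference was -5.75 peaks (exact permutation p = 0.0556) and -4.03 kb of covered length (exact permutation p = 0.0556). The difference between the lines in this change was not tested. With a minimum -log10 q of 20 the HCC44 difference was -3.5 peaks, and with equal list lengths it was 0. That limit counted 3 peaks in each HCC44 sample, but not the same ones. The ERAP1 and LNPEP starts were among the 3 throughout, and the other was chr5:96823494-96824345 with DMSO and chr5:96868603-96869332 with ACBI1.

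The 3 peaks that all HCC44 samples shared lie at the ERAP1 start, at the LNPEP start and at chr5:96868603-96869332, which is 6.65 kb before ERAP2. This last peak was listed in 4 of 4 HCC44 samples and, in H1975, in 1 ACBI1 sample. The ERAP1 start peak covered the whole printed promoter in all 8 samples. It was 1139 to 1186 bp wide and its rank ran from 76.5, in an H1975 ACBI1 sample, to 98.6, in an HCC44 DMSO sample. The LNPEP start peak was 1689 to 2360 bp wide, with ranks from 73.2 to 95.3. ERAP1's second RefSeq start, at position 96814145, had its promoter under no peak in any list, and the same held for LNPEP's second start at 96958433.

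The ERAP2 start behaved differently. Its peak, chr5:96876020-96877265, was listed in 1 H1975 DMSO sample at a rank of 0.937 and a width of 310 bp. Both HCC44 DMSO samples had it, at ranks of 17.4 and 28.1 and widths of 1246 and 1009 bp. No ACBI1 sample of either line had it. The peak covered 159 of the 300 promoter bases printed above in that H1975 sample, all 300 in the 2 HCC44 DMSO samples and 0 in the other 5. It was a weak peak wherever it was listed. For NLRC5, CIITA and PDIA3 the peak counted was at either end, and for CIITA it lay at the DEXI start. The start of CIITA itself was therefore not assessed. By this count ERAP2 was the only member whose peak was in both DMSO samples of a line and in neither ACBI1 sample. In HCC44 this was 1 of 8 genes, beside 4.69% of all protein-coding genes with a start peak in both DMSO samples. In H1975 it was 0 of 7 genes, beside 2.07%.

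Low CpG content went with such losses among all promoters, as a description. In HCC44, 15262 promoters were under a peak in both DMSO samples, with a median of 27 CpG dinucleotides and a GC content of 66%. The 1096 of them (7.18%) under no ACBI1 peak had medians of 7 and 53.7%. In H1975 the promoters lost were 528 of 15030 (3.51%), with a median of 6 CpG dinucleotides. The printed ERAP2 promoter has 3, and the other printed promoters and that of LNPEP have 26 to 38. Another CANX promoter of the table, with 20 CpG dinucleotides and a GC content of 55.7%, was also under a peak in all 8 lists. The second promoters of ERAP1 and LNPEP, with 3 each, were under no peak in any list, so they could not be lost. The part of peak strength in this relation was not tested.

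Away from the starts, 2 regions of the locus had peaks in all 4 DMSO samples and in no ACBI1 sample. The first, chr5:96823494-96824345, lies inside the ERAP1 record, with ranks from 47.7 to 70.5. The second, chr5:96880454-96882074, is inside ERAP2, 4.47 kb from its lower end, with ranks from 17.3 to 28.7. Its peaks were 437 and 350 bp wide in the H1975 samples and wider, 1534 and 1399 bp, in the HCC44 samples. A further region inside LNPEP, chr5:96967569-96968351, was listed in the HCC44 DMSO samples only. Beyond it lay the longest stretch without a peak at any of the 8 genes. It ran for 174 kb, from chr5:96968352-97142597, over most of LNPEP and past its end. No member lay wholly in a stretch without a peak. B2M, the light chain of class I molecules and a gene of the wider list below, did lie in one, chr15:44664034-45022567, of 359 kb.

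**Figure D2:**
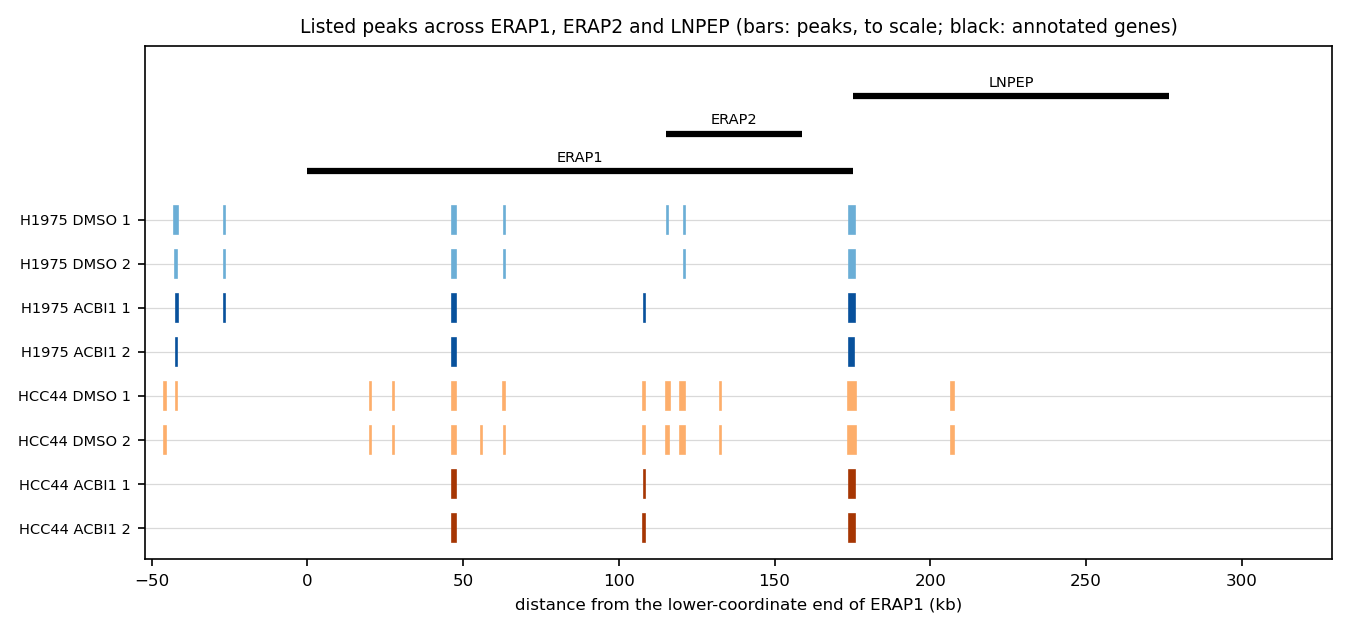
Peaks listed across ERAP1, ERAP2 and LNPEP in each sample. The horizontal axis is the distance in kb from the lower-coordinate end of ERAP1, each row is a sample, coloured bars are peaks drawn to scale and black bars are the annotated genes. The HCC44 DMSO rows hold 12 peaks each and the HCC44 ACBI1 rows hold 3, among them the peaks at the ERAP1 start and at the LNPEP start.

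For ERAP2 alone the window held 3, 2, 2 and 1 peaks in the H1975 samples in the order DMSO 1, DMSO 2, ACBI1 1, ACBI1 2, and 6, 6, 2 and 2 in HCC44. The groups of H1975 touched at 2, and those of HCC44 did not overlap. The difference over both lines was -2.5 peaks (exact permutation p = 0.111), and with equal list lengths it turned to 0.5. LNPEP held 1 peak in each H1975 sample, 3 in each HCC44 DMSO sample and 1 in each HCC44 ACBI1 sample, a difference of -1 (exact permutation p = 0.333).

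The 3 chaperone genes kept most of their peaks. The CALR window, around chr19:12938609-12944489, held 10, 10, 10 and 9 peaks in H1975, in the same sample order, and 10, 11, 9 and 8 in HCC44. The counts of the H1975 groups touched at 10, and the difference over both lines was -1.25 peaks (exact permutation p = 0.167). With equal list lengths it turned to 1.75. The window is dense with genes, and its regions include the starts of GCDH, SYCE2, FARSA, CALR and GADD45GIP1. The CALR start peak was in all 8 lists, with ranks from 94.1 to 97.4 in H1975 samples and lower ones, 76.6 to 84.4, in HCC44 samples. It covered the printed promoter with its stress element. The region of the window with the highest mean rank over the 8 lists, chr19:12964885-12965959, lay 20.4 kb beyond the higher end, away from any protein-coding start, and was in all 8 lists at ranks from 90.4 to 98.4. Of the differing regions, chr19:12985039-12985788 was in all 4 DMSO lists and 1 H1975 ACBI1 list.

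The CANX window, around chr5:179678656-179731641, held 7, 4, 5 and 3 peaks in H1975 and 6, 7, 7 and 5 in HCC44. DMSO and ACBI1 samples overlapped in both lines, and the difference was -1 (exact permutation p = 0.5), which turned to 1 with equal list lengths and to 0.25 with windows of 20 kb. The CANX start peak was in all 8 lists, at ranks from 79.4 to 95.6, and covered the printed promoter in each. Another peak lay at the lower end of the record, chr5:179677920-179679347, and was in all 8 lists at ranks from 73 to 88.9. The region chr5:179764701-179766462, inside the neighbour MAML1, was listed in both HCC44 DMSO samples at widths of 1762 and 1710 bp, in neither HCC44 ACBI1 sample, and in 1 H1975 DMSO sample.

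The PDIA3 window, around chr15:43746438-43773278, held 4 peaks in every sample except 1 HCC44 DMSO sample, which had 5. The difference of -0.25 (exact permutation p = 1) was the smallest of the 8 genes and turned to 0.5 with equal list lengths. The peak at the lower end, chr15:43745873-43747231, was in all 8 lists at ranks from 74.7 to 89.2. The other 3 regions in all 8 lists lie at starts of the neighbours ELL3 and SERF2 and of HYPK and SERINC4.

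**Figure D3:**
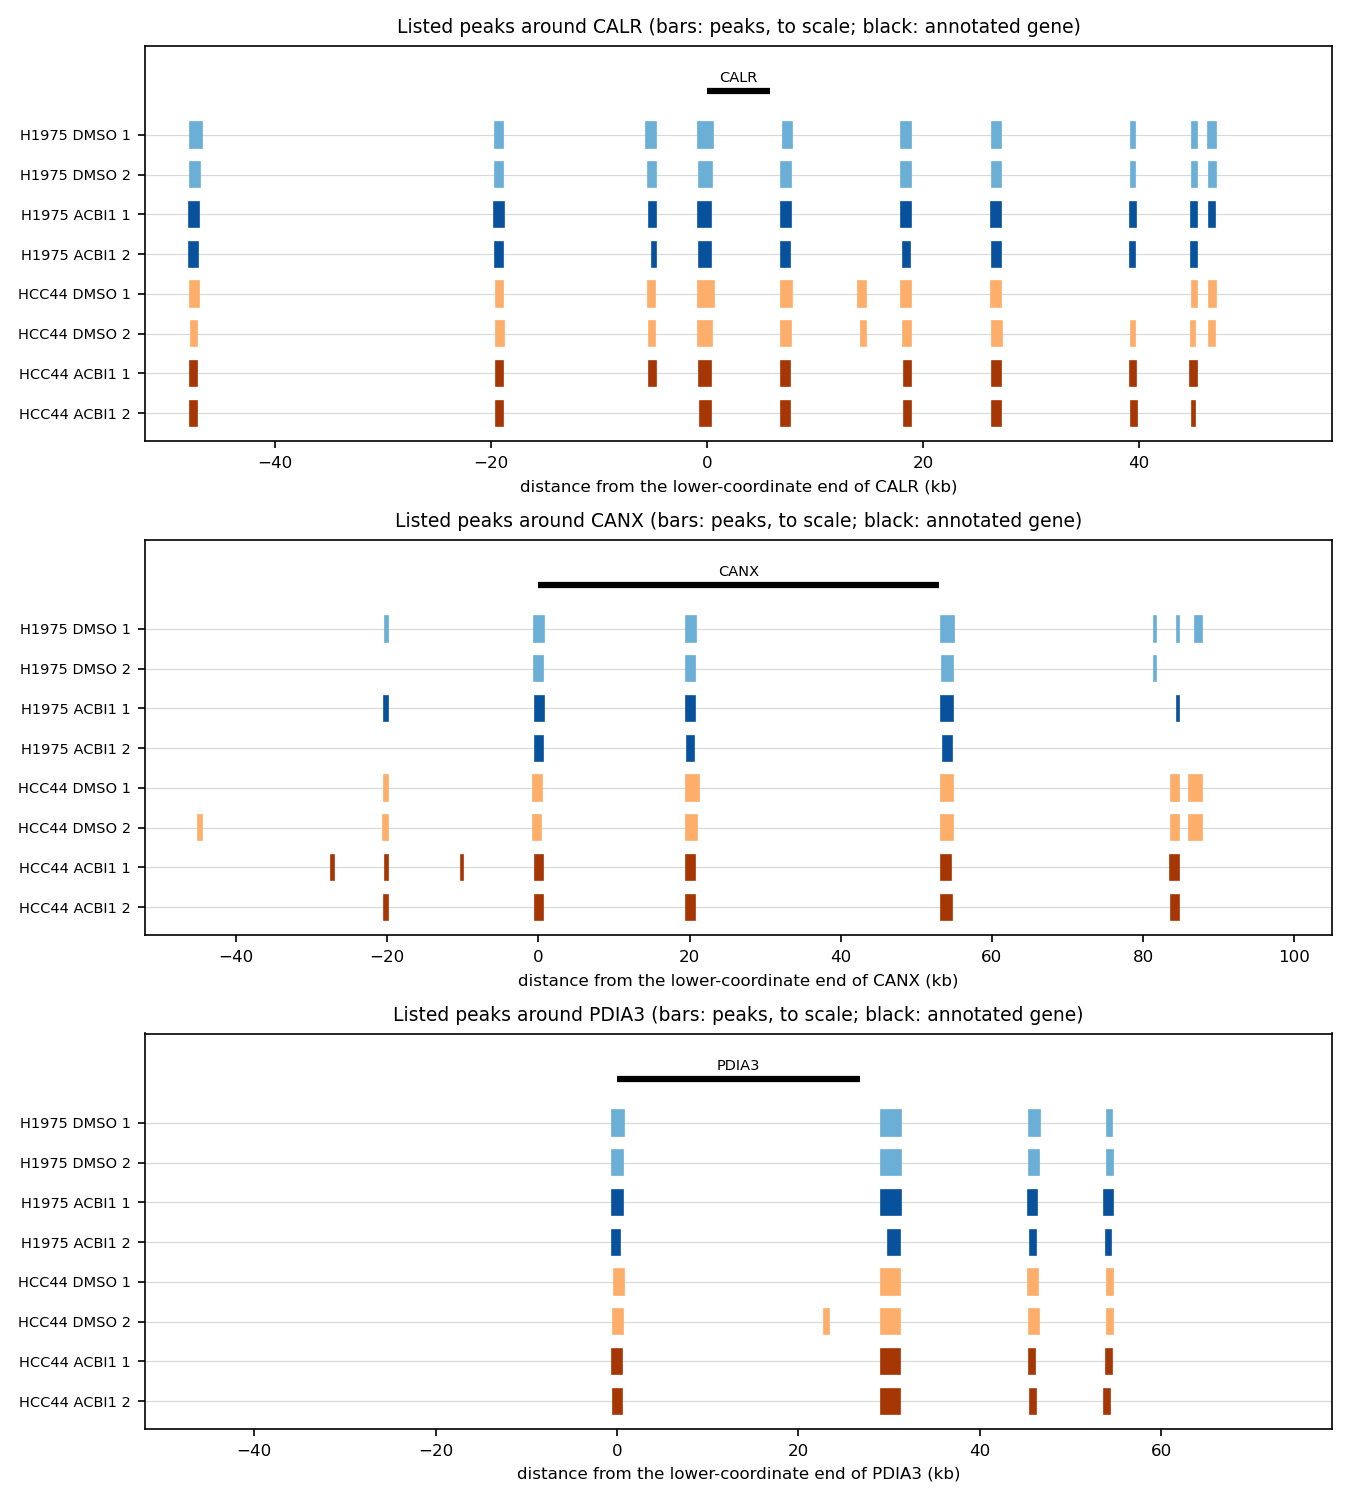
Peaks listed around CALR, CANX and PDIA3 in each sample. The horizontal axes are the distance in kb from the lower-coordinate end of each gene, each row is a sample, coloured bars are peaks drawn to scale and black bars are the annotated genes. All 8 rows hold a peak at 0 kb for CALR and PDIA3, and at the RefSeq start for CANX, to the right of 0 kb.

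By covered length, all 8 genes had a lower mean with ACBI1. The share of all genes with a lower covered length was not computed, and the ACBI1 lists are shorter throughout the genome. The count is therefore not read as a result about these genes. The differences were -0.908 kb for LNPEP and -2.4 kb for ERAP2, each at the smallest possible exact permutation p of 0.0556. Those of CALR, CANX and PDIA3 were -1.43, -1.7 and -0.796 kb, each with an exact permutation p of 0.111. With equal list lengths the covered length of NLRC5, CALR and CANX over both lines turned higher with ACBI1.

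Counted over the members, both ACBI1 samples held fewer window peaks than both DMSO samples for 3 of 8 genes in H1975 (NLRC5, CIITA and ERAP1), beside 50.6% of all protein-coding genes. In HCC44 this held for 6 of 8 (all but CANX and PDIA3), beside 64.1%. No member had more peaks in both ACBI1 samples of either line, beside 1.48% of all genes in H1975 and 1.71% in HCC44. The median change over the members was -1.25 peaks in H1975 and -2.75 in HCC44, beside -1 and -1.5 over all genes. With only 8 genes, of which ERAP1, ERAP2 and LNPEP share 1 locus, no difference from all genes is read from these counts. In H1975 the count was 5 with a minimum -log10 q of 20 and 5 without DMSO replicate 2. It was 6 without ACBI1 replicate 1, which leaves the sample with the shortest list. With a replicate left out the rule is looser, and the share over all genes was not recomputed.

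With equal list lengths no member had fewer peaks in both ACBI1 samples, beside 14.3% of all genes in H1975 and 16.9% in HCC44. In that setting 0 of 8 members had more peaks in H1975, beside 27.3%, and 4 of the 7 with a peak in both DMSO samples had more in HCC44 (ERAP2, CALR, CANX and PDIA3), beside 33.2%. Counts alone hide that some regions lost with ACBI1 had DMSO peaks inside the equal list length. Both DMSO peaks were among the strongest 22133 for 2 of the 7 lost regions of H1975, chr16:10862455-10862833 at CIITA and chr5:96823877-96824314 in ERAP1. In HCC44 they were for 4 of 18: 3 around CIITA and the same ERAP1 region. The DMSO peaks of these regions ranked from 47.7 to 80.8 in their full lists, so some were mid-list peaks. The other lost regions had at least 1 DMSO peak outside the strongest 22133. The share of all lost regions of the genome with both DMSO peaks among the strongest 22133 was not computed. These counts are therefore not read as particular to the 8 genes. Depth, background and accessibility cannot be told apart from lists alone.

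**Figure D4:**
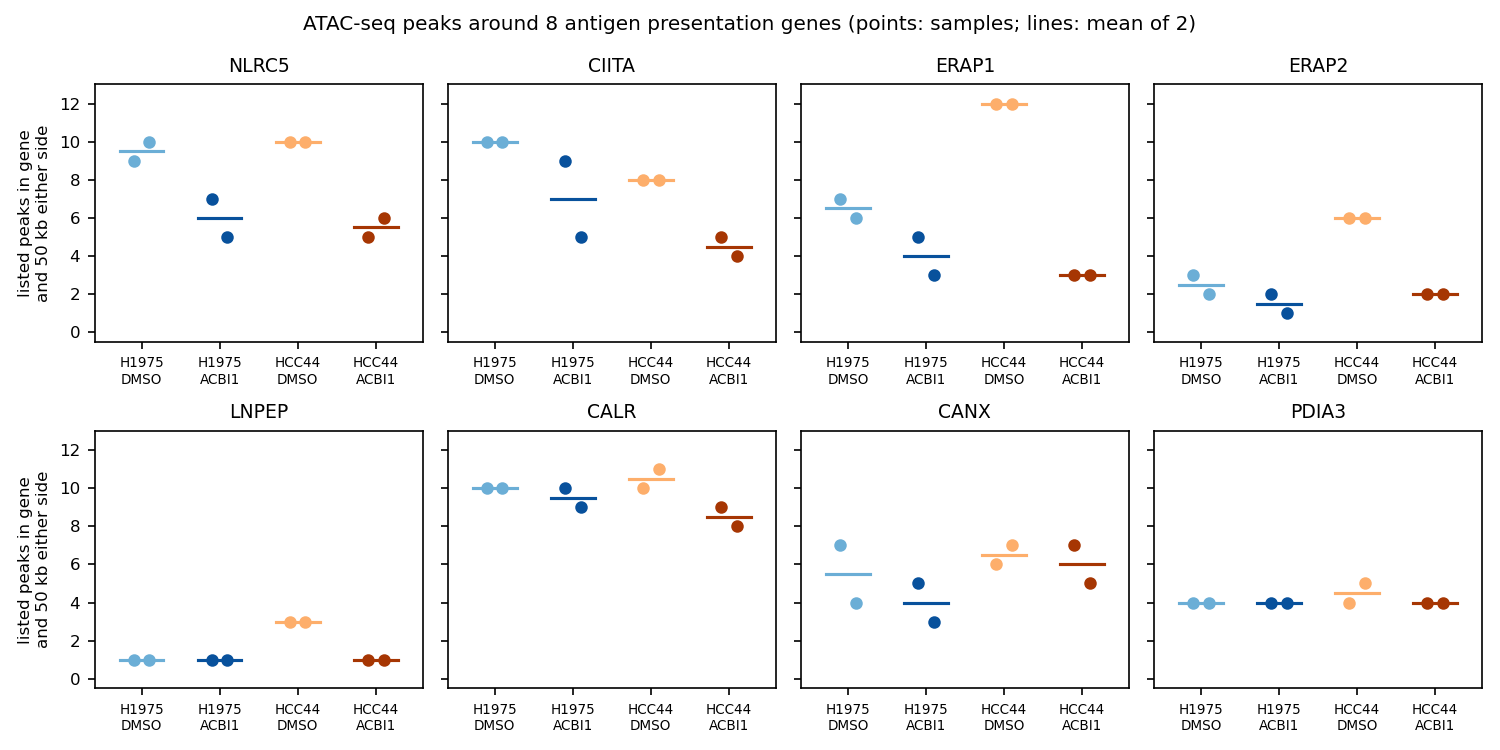
Number of listed peaks in each gene and 50 kb either side, by group. Points are the 2 samples of a group and lines are their means. ERAP1 in HCC44 falls from 12 to 3, NLRC5 lies lower with ACBI1 in both lines, and PDIA3 stays at 4 or 5.

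Each distinct region around the genes was also counted once. There were 67, of which 22 had a peak in all 8 lists and 11 in 1 list only. Of 22 regions within 1 kb of a protein-coding start, 17 were in all 8 lists, against 5 of 45 away from starts. Such a contrast is not particular to these genes. Of all regions, 3.35% in H1975 and 6.56% in HCC44 were lost near starts, against 51.3% and 63.9% away from them. Around the 8 genes 33 regions were in all 4 DMSO lists. Of these, 4 were in no ACBI1 list: the 2 at CIITA, the 1 in ERAP1 and the 1 in ERAP2 given above. No share over all regions stands beside the counts over 4 or 8 lists.

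Of the regions that both DMSO samples of a line held, ACBI1 left neither sample with a peak in 7 of 42 (16.7%) in H1975, beside 37.2% of all regions, and in 18 of 47 (38.3%) in HCC44, beside 49.2%. Near protein-coding starts these were 0 of 18 in H1975, beside 3.35%, and 2 of 21 in HCC44, beside 6.56%. The ERAP2 start is 1 of these 2, and the other lies in the CALR window. Away from starts they were 7 of 24 (29.2%) in H1975, beside 51.3%, and 16 of 26 (61.5%) in HCC44, beside 63.9%. In H1975 the share lost was lower for the members' regions than for all regions. The regions are neighbours at a few loci, so no difference from all regions is read from these counts. Without ACBI1 replicate 1 the H1975 share of the members' regions was 33.3%. There a region was lost when absent from 1 ACBI1 sample, which is a looser rule. The share over all regions was not recomputed under it. In HCC44 regions near and away from starts were each lost at a share close to that of all such regions. The lost regions had ranked lower in the DMSO lists, with a median of 37.5 against 82.1 for the retained ones in H1975 and of 32.3 against 62.1 in HCC44.

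**Figure D5:**
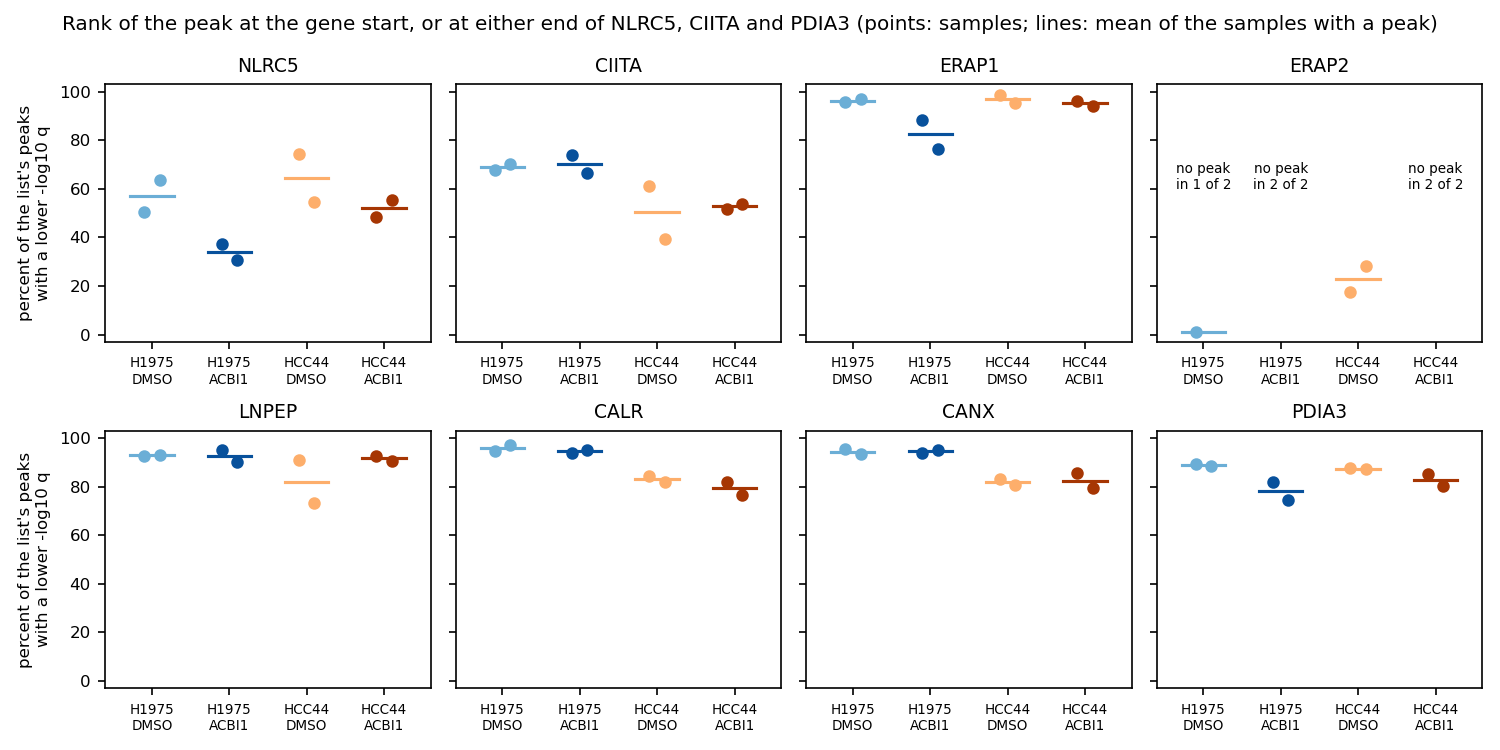
Rank of the peak at each gene's start within its list, as the percent of the list's peaks with a lower -log10 q. Points are samples and lines are means of those with a peak. Where a promoter was not in the table used (NLRC5, CIITA and PDIA3) the peak at either end is shown, which for CIITA is that at the start of DEXI. ERAP1 and LNPEP lie between 73.2 and 98.6, and ERAP2 has a peak in 3 samples only, at ranks of at most 28.1.

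Ranked by the authors' fold enrichment instead of -log10 q, the mean rank of the start peak changed little for ERAP1 (92.8 by -log10 q, 84.7 by fold) and PDIA3 (84.3 and 82.8). It dropped for LNPEP from 89.9 to 26.8, for CALR from 88.3 to 28.7 and for CANX from 88.4 to 40.6. The ERAP2 start peak was low by both, at 15.5 and 12.8.

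Between the lines with DMSO, both HCC44 samples had more window peaks than both H1975 samples for ERAP1, ERAP2 and LNPEP, which is 3 of 8 genes at 1 locus, beside 36.9% of all genes. CIITA had fewer in HCC44. With ACBI1, 0 of 8 genes had more peaks in HCC44, beside 18.4%. Over both treatments the difference HCC44 minus H1975 was 2.25 peaks for ERAP1 (exact permutation p = 0.333) and -2.25 for CIITA (exact permutation p = 0.111). With equal list lengths the ERAP1 difference turned to -1. The other members differed by between -0.25 and 2 peaks.

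The wider pathway was read from a list of 40 other genes outside the MHC, all found in the gene table: further proteasome, peptidase, chaperone and class II genes and their regulators. PSMB6, PSMB7, IRF2, NFYB, CTSS, LGMN and HM13 were not in the promoter table, so a peak near either end was counted. A peak at the start, or for these at an end, was in all 8 lists for 36 of the 40. It was in none for 3: B2M, the proteasome subunit PSMB5 and the ubiquitin ligase MARCHF1. Of all protein-coding genes, 58.1% to 61.8% had a peak so counted in a given list. These are shares per list and not over all 8 lists. The remaining gene of the 40, CTSS, encodes cathepsin S, a protease that cuts the class II invariant chain. It had a peak near an end of the gene in both HCC44 DMSO samples and in no other sample. This peak was thus lost in HCC44, but whether it lies at the start of CTSS was not read. Of 36 with a peak so counted in both H1975 DMSO samples, 36 kept it in both ACBI1 samples, beside 2.07% of all genes that lost theirs. Of 37 in HCC44, 36 kept it and 1 lost it, beside 4.69%. Both ACBI1 samples held fewer window peaks for 15 of 40 in H1975 and 18 of 40 in HCC44, shares below those of all genes given above. More peaks were found for 2 of 40 in H1975, beside 1.48% of all genes. These were RFXANK, a subunit of the class II promoter complex, and CD74, the class II invariant chain. More peaks were found for 0 of 40 in HCC44, beside 1.71%. The gene of the interferon factor IRF1 had 6, 4, 3 and 3 window peaks in H1975 and 10, 9, 3 and 3 in HCC44. It was not alone in this: TPP2 had 3, 5, 2 and 2 in H1975 and 7, 7, 2 and 2 in HCC44. By contrast, HSP90B1 held 3 in every sample.

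Genes with a similar pattern were sought for the 3 members with most window peaks, among protein-coding genes on other chromosomes, by the sum over the 8 samples of the absolute differences in window counts. Nearest to CALR were CENPT, KCTD2 and STK16, each with a sum of 2. Nearest to NLRC5 were GIT2 and PPP1R14A with 2 and INPP5A with 3, and nearest to CIITA were CTSA, PCIF1 and PLTP with 3 each. CTSA, PCIF1 and PLTP all lie on chromosome 20 with near-identical counts of their own.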

How the data were processed

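Accessibility was measured by ATAC-seq in 8 samples, and the libraries went through 11 PCR cycles, per the labels' protocols. The authors deposited 1 broadPeak list of 9 columns for each sample, so peak calling was not pooled. BWA and hg38 are named in the submitters' processing notes, and the caller and its filters are not given in the sources used here. The fold enrichment of each peak (a ratio) and its p-value and q-value (as −log10) are the authors' own deposited values, and serve only for ranks and filters inside a list. The deposited score was not used. The lowest −log10 q was 10 to 10.2, and the smallest gap between peaks ran from 657 to 1153 bp, so joining differed between lists. At most 0.0831% of a list lay on other sequences, which were not used. Depth in reads is unknown, so no counting interval was computed.

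Gene positions and promoters came from RefSeq tables of GRCh38.p14. The promoter table held 5 of the 8 members. For the others, and for every other gene without an entry, a peak within 1 kb of either end was counted. Regions near protein-coding starts were found by the same rule, so they include some gene ends. Peaks of the 4 samples of a line that shared 1 bp or more formed 1 region. A region in both DMSO samples was called lost when in neither ACBI1 sample and retained when in both. Window counts and covered length were compared by exact permutation tests, two-sided, with labels permuted within line (36 arrangements) and, between lines, within treatment. The p-values measure only the spread between these samples, which may be technical.

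All 8 members are named. Regions named are those at a start or end and the lost, gained and retained ones of highest rank. The members and lists were chosen with earlier results of these data known. Alternatives were a minimum −log10 q of 20, equal list lengths (22133), windows of 20 and 100 kb, a start window of 5 kb, joining at 1200 bp, merging at 1000 bp, ranking by fold, leaving out each replicate and a replicate block. Python 3.11.15, numpy 2.4.6, pandas 2.3.3, scipy 1.17.1 and matplotlib 3.10.9 were used, and the functions were tested on simulated data.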

Additional observations from a re-analysis of the deposited data

How the results depend on the processing

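Of 258 values under other settings, 29 changed sign, and 11 differences became 0. Of 344 values that left out 1 replicate, 3 changed sign and 9 became 0. Those 3 changed without ACBI1 replicate 2 of their line: the covered length in H1975 of CALR (44 bp, and as low as -1689 bp without another replicate) and of PDIA3 (69.5 bp, lowest -1746 bp), and CANX peaks in HCC44 (0.5, lowest -1.5).

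With equal list lengths, ACBI1 minus DMSO turned positive for NLRC5 (2.25 peaks over both lines, 0.5 in H1975, 4 in HCC44; covered length 1419, 132 and 2706 bp). It also did for CIITA in H1975 (0.5), ERAP2 (0.5 over both lines, 1 and 124 bp in HCC44) and CALR (1.75 and 258 bp over both lines, 0.5 peaks in H1975, 3 and 960 bp in HCC44). The same held for CANX (1 and 33.2 bp over both lines, 2 peaks and 570 bp in HCC44) and PDIA3 (0.5 over both lines, 1 peak and 152 bp in HCC44). HCC44 minus H1975 turned to -1 for ERAP1 and -0.5 for PDIA3. In that setting 0 members had fewer peaks in either line, 25% of HCC44 regions were lost, and 5 members had a peak at the start or end in both HCC44 DMSO samples, against 8. These lists hold fewer DMSO peaks by construction.

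With a minimum −log10 q of 20, members with fewer peaks were 5 in H1975 and 3 in HCC44, 26.8% of H1975 regions were lost, and HCC44 minus H1975 was -0.25 for PDIA3. Windows of 20 kb gave 0.25 for CANX with ACBI1 (0.5 in HCC44) and 0.25 for CALR between lines, as did joining at 1200 bp for CALR. Windows of 100 kb gave 5 members in H1975. The causes were not tested. Leaving out 1 replicate gave 3 to 6 members with fewer peaks in H1975 and 6 to 7 in HCC44, and 16.7% to 33.3% and 38.3% to 43.4% of regions lost. The rules are looser with a replicate left out, and the shares over all genes or regions were not recomputed.

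Same-numbered replicates did not deviate together (correlation over genes 0.08 in H1975 and 0.03 in HCC44), so the main tests did not pair samples by number. With 2 replicates per group this cannot show whether same-numbered samples were handled together. With a replicate block the differences are the same by construction, such as -4 for NLRC5 and -5.75 for ERAP1, each with an exact permutation p of 0.125, the smallest that 16 arrangements can give.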
